A study of Mus musculus with 10 samples.

Results

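The genes described here are 9 genes of natural killer cells, lymphocytes that kill without an antigen receptor of their own. They are the receptor genes Ncr1, Klrd1, Klrc1, Klrk1, Klre1, Klrb1c and Klra8, the kinase gene Txk and the chemokine gene Xcl1. They were picked by symbol from the expression table, which lists 29890 genes, and all 9 were present. RNA had been sequenced from 10 bulk tumors of B2905-M4, a mouse melanoma line, grown under the skin of female C57BL/6J mice injected at 7 to 8 weeks of age. In 5 tumors the line overexpressed Adamts7, which encodes a protease that acts on matrix proteins outside the cell, and in 5 it carried a vector. No mouse received immunotherapy, and the hosts had their own immune cells. Harvest fell on day 35 (2 Adamts7 tumors), day 45 (3 Adamts7 and 3 vector tumors) or day 50 (2 vector tumors) after injection, and the labels do not say which tumor was taken when. Group, growth and harvest day therefore cannot be fully told apart.

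A natural killer cell weighs signals from activating and inhibitory receptors before it releases cytotoxic granules. The activating receptor NKp46, encoded by Ncr1, is the most selective marker of these cells in the mouse. The lectin-like receptors of the Klr family sense MHC class I molecules, which restrain killing, or stress ligands, which provoke it. Several of the genes are also switched on in activated CD8 T cells, among them Klrd1, Klrc1, Klrk1 and Xcl1, and Txk is made in T cells as well. In bulk tumors fewer cells of a type and less RNA per cell cannot be told apart.

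Of the 9 genes, 6 lie on mouse chromosome 6, where the lectin-like receptor genes form the natural killer gene complex. Ncr1 lies on chromosome 7, Txk on chromosome 5 and Xcl1 on chromosome 1. The RefSeq promoter windows of build GRCm38.p6, which run from 250 bases before to 50 bases after a gene's start, covered 8 of the 9 genes. They were searched on both strands for TGTGGT, the core letters of the RUNX motif, and for GGTGTGA, the letters of the T-box motif, because RUNX3, T-bet and Eomes are transcription factors of natural killer cells. Neither set of letters contains the other. TGTGGT was in the first listed window of 6 of the 8 genes, against 16.8% of 32851 mouse windows. That share counts every listed window of a gene, not the first alone. The second windows of Klre1 and Txk held 0 and 1 match of TGTGGT, the reverse of their first windows. GGTGTGA was in the window of 1 gene, Xcl1, against 3.98% of the windows. Klra8 and the first window of Txk held neither. Matches describe letters only, and no binding was measured. The windows of Ncr1, the most selective marker, Klrk1, an activating receptor of the gene complex, and Xcl1, the gene with both motifs, are given with the matches on either strand in capitals. They lie at chr7:4337465-4337764 on the plus strand, chr6:129623815-129624114 on the minus strand and chr1:164935473-164935772 on the minus strand.
Ncr1: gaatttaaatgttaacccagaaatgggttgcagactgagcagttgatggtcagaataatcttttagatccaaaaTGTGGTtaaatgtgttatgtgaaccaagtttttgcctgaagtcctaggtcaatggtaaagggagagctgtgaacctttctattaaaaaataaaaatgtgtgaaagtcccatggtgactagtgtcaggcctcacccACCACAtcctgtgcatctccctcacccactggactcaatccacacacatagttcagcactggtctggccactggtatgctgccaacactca
Klrk1: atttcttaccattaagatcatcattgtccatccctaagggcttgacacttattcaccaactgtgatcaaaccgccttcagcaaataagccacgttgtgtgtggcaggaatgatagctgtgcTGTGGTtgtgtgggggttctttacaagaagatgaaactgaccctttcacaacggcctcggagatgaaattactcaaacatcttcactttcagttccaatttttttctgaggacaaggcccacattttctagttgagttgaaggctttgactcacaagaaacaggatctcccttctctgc
Xcl1: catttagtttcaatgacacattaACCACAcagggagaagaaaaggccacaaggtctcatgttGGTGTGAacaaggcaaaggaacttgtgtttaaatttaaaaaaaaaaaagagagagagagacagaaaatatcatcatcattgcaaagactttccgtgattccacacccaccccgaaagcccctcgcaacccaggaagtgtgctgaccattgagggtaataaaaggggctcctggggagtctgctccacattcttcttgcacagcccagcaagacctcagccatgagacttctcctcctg

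Expression was deposited as log2(TPM + 1), and the levels below are TPM, a transcript abundance per length scaled within each library that keeps no read depth, so the depth of each tumor is unknown. The tumors summed to between 995286 and 998019 TPM over all listed genes. Adamts7 itself averaged 71.2 ± 30.8 TPM in Adamts7 tumors and 15.6 ± 11.3 TPM in vector tumors (SD, n = 5 each; log2 fold change 2.21, limma adjusted p = 0.104). It was at 18.2 TPM in the tumor labelled Adamts7 5, below 28.3 and 27.6 TPM in vector tumors 3 and 5, so every direction below takes that label as given. Vector tumors 3 and 5 stood apart from the other 3 vector tumors, with the summed level of 7 melanocyte markers at 312 and 1909 TPM, against 8375 to 16291 TPM in vector tumors 1, 2 and 4 and 12470 to 22967 TPM in the Adamts7 tumors. All 9 genes were above 0 TPM in all 10 tumors. Nothing in the labels says that the cells of a group were prepared separately, so the p-values measure the spread between these tumors.

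All 9 natural killer genes had lower means in Adamts7 tumors than in vector tumors, by 3.32-fold for Klrb1c to 12.03-fold for Klrd1. Summed over the 9 genes, the tumors labelled Adamts7 1 to 5 had 24.8, 15.3, 14.0, 3.14 and 11.5 TPM, against 17.2, 36.3, 309.95, 46.3 and 244 TPM in vector tumors 1 to 5. The vector tumors thus fell into 2 high tumors and 3 that lay near the Adamts7 range, and vector tumor 1 was below Adamts7 tumor 1. Vector tumor 3 was the highest of its group for all 9 genes, and Adamts7 tumor 4 was the lowest of its group for 8 of them. No gene passed the test over all genes, although 8 of the 9 could be tested and all 8 had negative log2 fold changes. Over all genes, 9203 of the 15276 tested also had negative log2 fold changes.

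**Figure D1:**
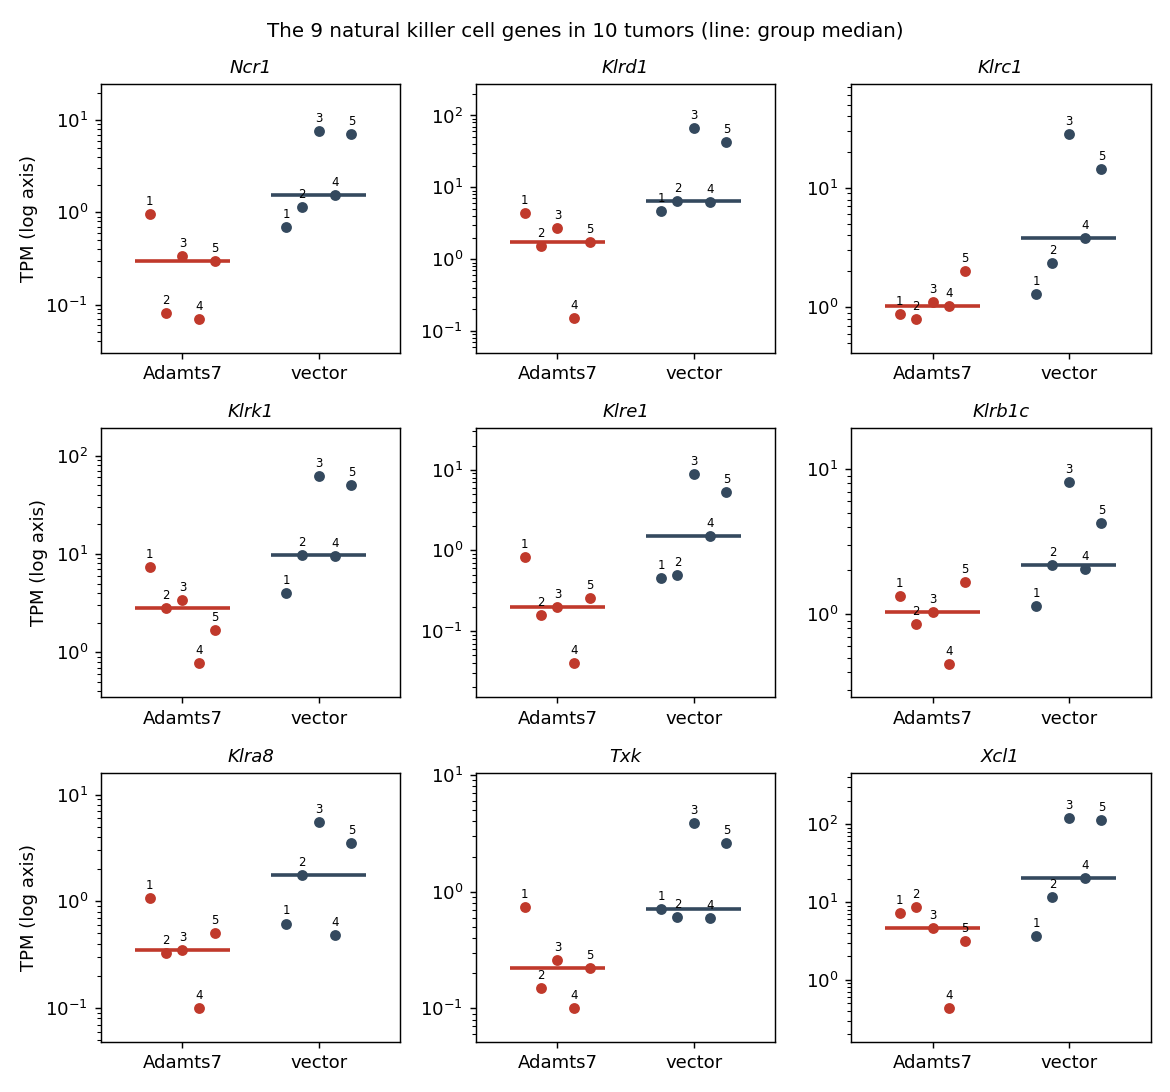
Level of each gene in TPM on a log axis, with 1 point per tumor numbered by replicate, Adamts7 tumors on the left and vector tumors on the right, and a line at the group median. Vector tumors 3 and 5 are the highest points in every panel, and Klrd1 is the gene whose groups do not overlap.

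Ncr1 stood at 0.95, 0.08, 0.34, 0.07 and 0.30 TPM in the tumors labelled Adamts7 1 to 5, against 0.69, 1.14, 7.66, 1.54 and 7.17 TPM in vector tumors 1 to 5. The groups overlapped only through Adamts7 tumor 1, which lay above vector tumor 1. The means were 0.348 ± 0.358 TPM in Adamts7 tumors and 3.64 ± 3.46 TPM in vector tumors (SD, n = 5 each), a 10.5-fold lower mean. On the log2(TPM + 1) scale, which understates the change of low genes, the log2 fold change of Adamts7 over vector was -1.47 (SE 0.48), which did not pass (limma, adjusted p = 0.154). The same value was -0.67 without vector tumors 3 and 5, and -1.47 without the tumor labelled Adamts7 5.

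Klrd1 encodes CD94, the shared partner chain of the NKG2 receptors that bind the nonclassical MHC class I molecule Qa-1. It was at 4.41, 1.51, 2.68, 0.15 and 1.75 TPM in the tumors labelled Adamts7 1 to 5, against 4.70, 6.43, 66.2, 6.30 and 42.7 TPM in vector tumors 1 to 5. Every vector tumor lay above every Adamts7 tumor, but by a small step between Adamts7 tumor 1 and vector tumor 1. Among the 8 tested genes Klrd1 was the only one whose groups did not overlap, while 3.78% of all tested genes were lower in Adamts7 tumors without overlap. The mean was 2.10 ± 1.58 TPM in Adamts7 tumors and 25.3 ± 27.9 TPM in vector tumors (SD, n = 5 each). The log2 fold change was -2.50 (SE 0.73, limma adjusted p = 0.133), and -1.30 without vector tumors 3 and 5.

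Klrc1 encodes NKG2A, the inhibitory chain that pairs with CD94. Its levels were 0.88, 0.79, 1.10, 1.02 and 2.01 TPM in the tumors labelled Adamts7 1 to 5, and 1.28, 2.33, 28.2, 3.81 and 14.3 TPM in vector tumors 1 to 5. The groups overlapped through the tumor labelled Adamts7 5, which lay above vector tumor 1. The means were 1.16 ± 0.490 TPM in Adamts7 tumors and 9.98 ± 11.4 TPM in vector tumors (SD, n = 5 each), with a log2 fold change of -1.71 (SE 0.62, limma adjusted p = 0.184). Leaving out the tumor labelled Adamts7 5 gave -1.84, and leaving out vector tumors 3 and 5 gave -0.65. Klrc1 shares sequence with its neighbours: 40.3% of the 50-base windows of its reference transcript, and 5.01% of the 150-base windows, also occur in another gene, mostly Klrc2, so its level rests on how reads were divided between them.

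Relative to its partner chain, Klrc1 was at 20.0, 52.3, 41.0, 680 and 115 TPM per 100 TPM of Klrd1 in the tumors labelled Adamts7 1 to 5, and at 27.2, 36.2, 42.6, 60.5 and 33.4 in vector tumors 1 to 5. Adamts7 tumor 4, where Klrc1 was near the level of the other Adamts7 tumors and Klrd1 was at 0.15 TPM, stood far above the rest. Of the other Adamts7 tumors, tumor 1 lay below the vector range, the tumor labelled Adamts7 5 above it, and the remaining ones within it.

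Klrk1 encodes NKG2D, the activating receptor for stress-induced ligands such as Rae-1. It was at 7.38, 2.84, 3.44, 0.77 and 1.67 TPM in the tumors labelled Adamts7 1 to 5, against 4.01, 9.83, 61.8, 9.60 and 50.5 TPM in vector tumors 1 to 5. Adamts7 tumor 1 lay above vector tumor 1, and the other 4 Adamts7 tumors lay below every vector tumor. The mean of 3.22 ± 2.54 TPM in Adamts7 tumors was 8.43-fold lower than the 27.1 ± 26.9 TPM in vector tumors (SD, n = 5 each). Its log2 fold change was -2.29 (SE 0.70, limma adjusted p = 0.140), and -1.18 without vector tumors 3 and 5.

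Klre1 encodes a lectin-like receptor that pairs with the products of Klri1 and Klri2. In the tumors labelled Adamts7 1 to 5 it was at 0.83, 0.16, 0.20, 0.04 and 0.26 TPM, against 0.45, 0.49, 8.88, 1.53 and 5.34 TPM in vector tumors 1 to 5. Adamts7 tumor 1 lay above vector tumors 1 and 2, and the other Adamts7 tumors lay below the whole vector group. The log2 fold change was -1.34 (SE 0.52, limma adjusted p = 0.203), and -0.47 without vector tumors 3 and 5.

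Klrb1c encodes NK1.1, the antigen by which natural killer cells of this mouse strain are usually sorted. It was at 1.33, 0.86, 1.03, 0.45 and 1.66 TPM in the tumors labelled Adamts7 1 to 5, against 1.13, 2.17, 8.13, 2.05 and 4.22 TPM in vector tumors 1 to 5. Both Adamts7 tumor 1 and the tumor labelled Adamts7 5 lay above vector tumor 1, and the 3.32-fold difference in means was the smallest of the 9 genes. Its log2 fold change was -0.97 (SE 0.37, limma adjusted p = 0.195), and -0.44 without vector tumors 3 and 5. Of its 50-base windows 18.1% are shared with other genes, mostly Gm44511.

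Klra8 encodes Ly49H, an activating receptor for a mouse cytomegalovirus protein. Its levels were 1.07, 0.33, 0.35, 0.10 and 0.50 TPM in the tumors labelled Adamts7 1 to 5, and 0.62, 1.78, 5.56, 0.48 and 3.51 TPM in vector tumors 1 to 5. The groups mixed, with Adamts7 tumor 1 above vector tumors 1 and 4, and the tumor labelled Adamts7 5 just above vector tumor 4. Its log2 fold change was -1.001 (SE 0.41, limma adjusted p = 0.220), and -0.39 without vector tumors 3 and 5. Klra8 shares 33.1% of its 50-base windows with other genes of the family, mostly Klra14-ps.

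Xcl1 encodes lymphotactin, a chemokine by which natural killer and CD8 T cells attract the dendritic cells that carry its receptor XCR1. It was at 7.21, 8.61, 4.60, 0.44 and 3.12 TPM in the tumors labelled Adamts7 1 to 5, against 3.64, 11.6, 119.7, 20.4 and 113.9 TPM in vector tumors 1 to 5. Vector tumor 1 lay inside the Adamts7 range, and the other 4 vector tumors lay above it. The means were 4.80 ± 3.25 TPM in Adamts7 tumors and 53.8 ± 57.8 TPM in vector tumors (SD, n = 5 each), an 11.2-fold lower mean. Xcl1 had the most negative log2 fold change of the 8 tested genes, -2.54 (SE 0.90, limma adjusted p = 0.178), and -1.16 without vector tumors 3 and 5.

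Txk encodes a kinase of the Tec family that signals below lymphocyte receptors. It was at 0.74, 0.15, 0.26, 0.10 and 0.22 TPM in the tumors labelled Adamts7 1 to 5, against 0.71, 0.61, 3.88, 0.59 and 2.59 TPM in vector tumors 1 to 5. Adamts7 tumor 1 lay above 3 of the vector tumors, and the other 4 Adamts7 tumors lay below all of them. Its mean over the 10 tumors, 0.985 TPM, was below the 1 TPM needed to enter the test. In the fit without that filter the log2 fold change was -0.90 (SE 0.33, limma adjusted p = 0.300).

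The order of the levels was alike at the top in the 2 groups. In Adamts7 tumors Xcl1 had the highest mean at 4.80 TPM, followed by Klrk1 at 3.22, Klrd1 at 2.10, Klrc1 at 1.16 and Klrb1c at 1.07 TPM, with Klra8, Ncr1, Klre1 and Txk between 0.470 and 0.294 TPM. Most neighbours in that order could not be separated: Xcl1 was above Klrk1 in 3 of 5 tumors, Klrd1 above Klrc1 in 3 and Klrc1 above Klrb1c in 3, while Klrb1c was above Klra8 in 5 of 5 and Klra8 above Ncr1 in 5 of 5. In vector tumors the order ran Xcl1 at 53.8 TPM, Klrk1 at 27.1, Klrd1 at 25.3, Klrc1 at 9.98, Ncr1 at 3.64, Klrb1c at 3.54, Klre1 at 3.34, Klra8 at 2.39 and Txk at 1.68 TPM. There Klrd1 was above Klrc1 in 5 of 5 tumors and Klrc1 above Ncr1 in 5 of 5, but Ncr1 was above Klrb1c in 1 of 5. By mean, Ncr1 ranked 5 of the 9 in vector tumors and 7 in Adamts7 tumors. By median it lay below Klrb1c and Klra8 in both groups. The medians were 1.54 against 2.17 and 1.78 TPM in vector tumors, and 0.30 against 1.03 and 0.35 TPM in Adamts7 tumors. The difference in rank thus rests on the means.

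With limma over 15276 genes, 0 of the 8 tested genes had an adjusted p under 0.05 (adjusted p between 0.133 and 0.220), while 0.196% of all tested genes were called lower in Adamts7 tumors. At an unadjusted p under 0.05, 8 of 8 were lower, with p between 0.0058 and 0.0349, against 15.3% of all tested genes. Ncr1, Klre1 and Klra8 averaged 0.348, 0.298 and 0.470 TPM in Adamts7 tumors and passed the 1 TPM filter only through the vector tumors. The filter thus favored a lower Adamts7 level for these genes, and the count of 8 is no separate support for the direction. Their median log2 fold change was -1.59, against -0.10 over all genes tested. Without vector tumors 3 and 5 the median was -0.66, and 0 were called, where 0.170% of all genes were called lower. Without the tumor labelled Adamts7 5 the 8 values ran from -2.50 for Klrd1 to -1.02 for Klra8 with a median of -1.65 (limma adjusted p between 0.110 and 0.197), and 0 were called, where 3.17% of all genes were called lower. The day of each tumor is unknown. The difference of means was therefore taken for all 100 choices of 3 Adamts7 and 3 vector tumors that could be day 45. The 8 tested genes each had a negative value in all of them. On the log2 scale the values lay between -3.81 and -0.83 for Klrd1 and between -1.79 and -0.22 for Klra8. For Klrd1 the sign was fixed in advance, because its groups did not overlap. The other genes overlapped in few tumors, so their sign had little room to turn. These choices therefore cannot tell harvest day from group.

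**Figure D2:**
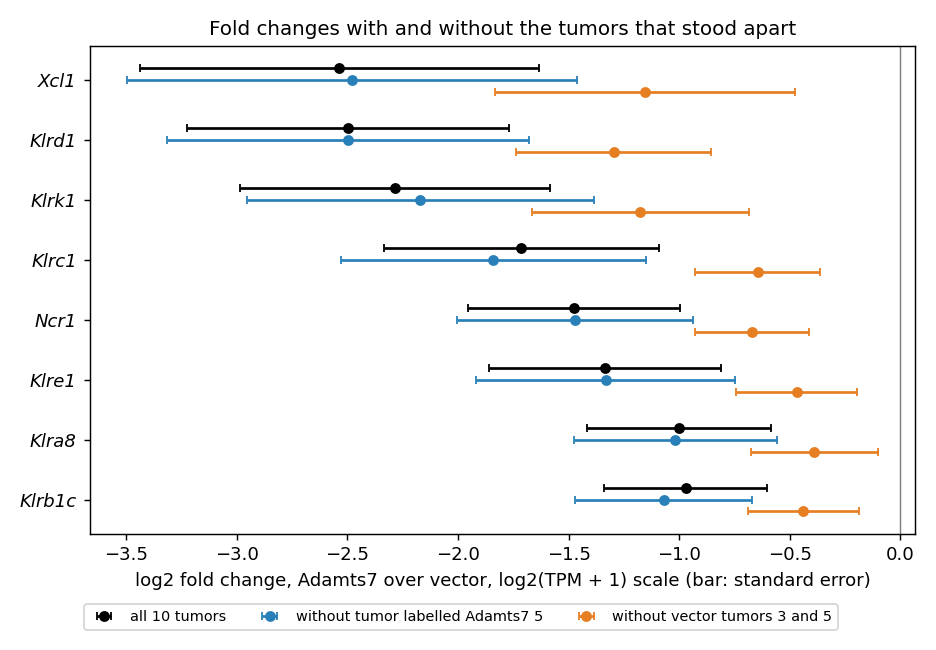
Log2 fold change of Adamts7 over vector tumors for the 8 tested genes on the log2(TPM + 1) scale, with bars of 1 standard error, from all 10 tumors and from fits without the tumor labelled Adamts7 5 or without vector tumors 3 and 5. All points lie below 0, and leaving out vector tumors 3 and 5 brings Xcl1 to -1.16 and Klrd1 to -1.30.

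The authors' deposited table, for which DESeq2 is named in the processing notes, called all 9 genes lower in Adamts7 tumors, where it called 5.48% of its 18796 genes with an adjusted p lower. In the authors' deposited table the log2 fold change was -3.31 for Ncr1 (adjusted p = 0.00262), -3.50 for Klrd1 (adjusted p = 0.00116) and -3.37 for Xcl1 (adjusted p = 0.00391). The weakest values in the authors' deposited table were -1.61 for Klrb1c (adjusted p = 0.0406) and -2.25 for Klra8 (adjusted p = 0.0446). Txk was at -2.42 (adjusted p = 0.0133) in the authors' deposited table. Both analyses used the same 10 tumors and gave every gene the same sign, but they differed on whether the genes passed.

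T cell markers and the leukocyte marker Ptprc also had lower means in Adamts7 tumors, and none was called. Ptprc, the leukocyte antigen CD45, was at 23.4, 11.1, 10.5, 8.33 and 6.11 TPM in the tumors labelled Adamts7 1 to 5, against 14.7, 19.2, 102.9, 17.5 and 95.4 TPM in vector tumors 1 to 5 (log2 fold change -1.60, limma adjusted p = 0.187). Cd3e, a T cell receptor subunit that mature natural killer cells lack at their surface, was at 5.10, 3.32, 4.16, 2.14 and 1.44 TPM in the tumors labelled Adamts7 1 to 5, against 6.33, 7.98, 40.4, 6.46 and 33.3 TPM in vector tumors 1 to 5 (log2 fold change -1.88, limma adjusted p = 0.128). Vector tumors 3 and 5 were thus also the highest for both markers. Of 11 T cell markers all 11 had negative log2 fold changes and 0 were called, with a median of -1.67, and -0.64 without vector tumors 3 and 5. Their summed level was 19.8 to 42.2 TPM in Adamts7 tumors and 46.8 to 434 TPM in vector tumors, and none was at 0 in all tumors. The part of T cells in the levels of the shared genes was not tested beyond the ratios that follow.

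Relative to Ptprc, Klrd1 ran at 1.80, 18.8 and 28.6 TPM per 100 TPM of Ptprc as the lowest, median and highest Adamts7 tumor, against 31.9, 36.0 and 64.3 in vector tumors. The groups did not overlap on this scale either, with Adamts7 tumor 4 far below the rest. Klrd1 was the only one of the 8 tested genes for which this held, and 0.190% of all tested genes, 29 in number, were lower relative to Ptprc without overlap. Ncr1 ran at 0.720, 3.24 and 4.91 per 100 TPM of Ptprc in Adamts7 tumors, against 4.68, 7.44 and 8.81 in vector tumors, and 4 of the 5 Adamts7 tumors lay below the lowest vector tumor. Klrk1 was at 9.24, 27.3 and 32.8 in Adamts7 tumors, against 27.2, 52.9 and 60.04 in vector tumors. Xcl1 was at 5.28, 43.8 and 77.5 in Adamts7 tumors, against 24.7, 116 and 119 in vector tumors. Both overlapped through the low end of the vector tumors.

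For Klre1 and Txk, 3 of the 5 Adamts7 tumors lay below the lowest vector tumor on this scale. Klre1 ran at 0.480, 1.90 and 4.26 in Adamts7 tumors, against 2.56, 5.60 and 8.75 in vector tumors, and Txk at 1.20, 2.48 and 3.60 in Adamts7 tumors, against 2.71, 3.37 and 4.82 in vector tumors. Klrb1c, Klra8 and Klrc1 had 0, 1 and 2 Adamts7 tumors below the lowest vector tumor. Klrb1c was at 5.40, 7.74 and 27.2 per 100 TPM of Ptprc in Adamts7 tumors, against 4.42, 7.90 and 11.7 in vector tumors, so that the medians nearly met. Klra8 was at 1.20, 3.33 and 8.18 in Adamts7 tumors against 2.74, 4.21 and 9.29 in vector tumors, and Klrc1 at 3.76, 10.5 and 32.9 in Adamts7 tumors against 8.69, 15.0 and 27.4 in vector tumors. These 3 are also the genes that share transcript sequence with relatives. Klrk1 and Xcl1, which share 0% of their 50-base windows, had 2 and 1 Adamts7 tumors below the lowest vector tumor. A part of shared sequence in these ratios was not tested.

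Relative to Cd3e, all 9 genes overlapped between the groups, while 0.0458% of all tested genes were lower without overlap. Klrd1 was at 7.01, 64.4 and 122 TPM per 100 TPM of Cd3e in Adamts7 tumors, against 74.2, 97.5 and 164 in vector tumors. Ncr1 was at 2.41, 8.17 and 20.8 in Adamts7 tumors, against 10.9, 19.0 and 23.8 in vector tumors. Klrb1c ran the other way, at 21.03, 25.9 and 115 in Adamts7 tumors against 12.7, 20.1 and 31.7 in vector tumors, and Klra8 was near equal in the medians, at 9.94 in Adamts7 tumors and 10.5 in vector tumors. The other 5 genes had lower medians in Adamts7 tumors. Ncr1 relative to both markers was also tested on the log2(TPM + 1) scale in an exact permutation test, two-sided, over 252 arrangements. The difference, Adamts7 minus vector, was 0.13 for Ncr1 over Ptprc (exact p = 0.587, adjusted over the 2 tests 0.587) and 0.40 for Ncr1 over Cd3e (exact p = 0.0794, adjusted 0.159), and neither passed. With no pseudocount, an alternative chosen after the values were seen, the same differences were -1.69 (exact p = 0.0159, adjusted 0.0317; lower than the vector median in 5 of 5 Adamts7 tumors) and -1.18 (exact p = 0.119). Going from no pseudocount to 1 TPM raised the mean log2 ratio to Ptprc from -5.59 to -3.16 in Adamts7 tumors. In vector tumors it rose only from -3.89 to -3.29. The pseudocount of 1 TPM thus moved the reported difference upward. At levels of Ncr1 near or below 1 TPM the sign of this ratio therefore depended on the pseudocount, and no direction is given for it.

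**Figure D3:**
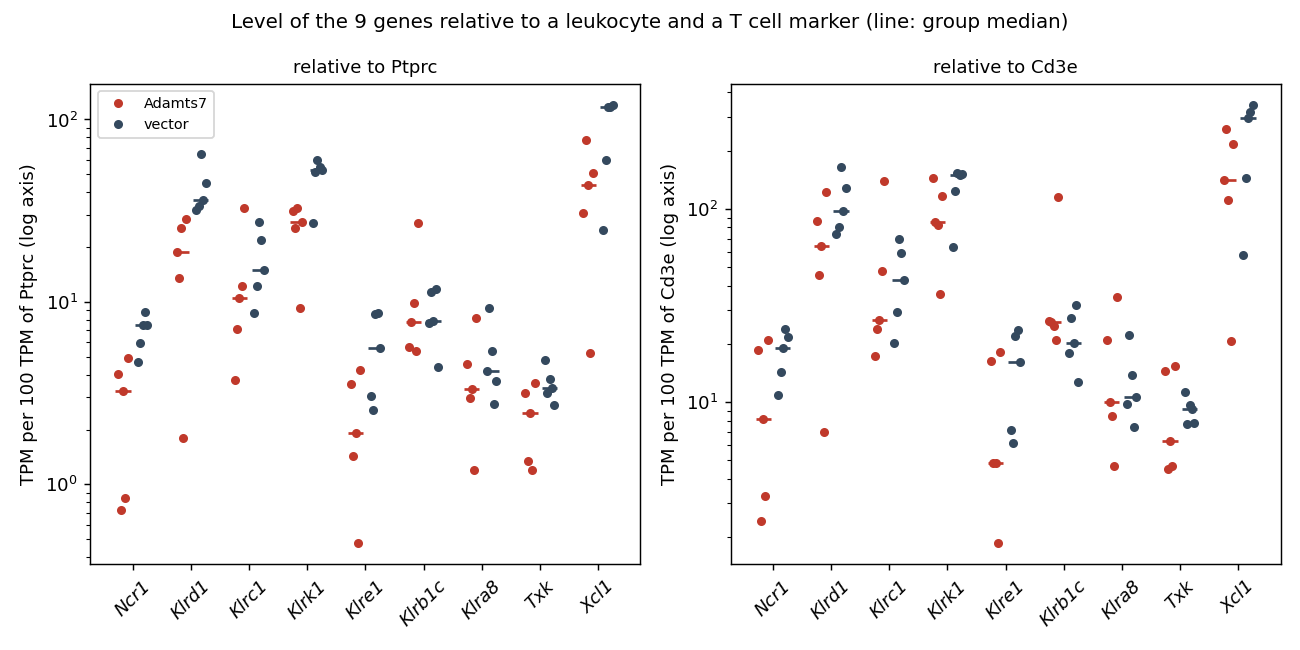
Level of the 9 genes in TPM per 100 TPM of Ptprc (left) and of Cd3e (right) on log axes, with 1 point per tumor, Adamts7 tumors left of vector tumors and a line at the group median. For Klrd1 relative to Ptprc the highest Adamts7 tumor, at 28.6, lies below the lowest vector tumor, at 31.9, and relative to Cd3e every gene overlaps.

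Among 26 other receptors of natural killer cells, 13 passed the filter, of which 12 had negative log2 fold changes, 1 had a positive one and 0 were called (median -1.10, and -0.31 without vector tumors 3 and 5). Of all 15276 tested genes 9203 were negative, a share that stands beside this and the counts of negative genes in the lists below. Some of these receptors, Cd244a among them, averaged below 1 TPM in Adamts7 tumors and passed the filter only through the vector tumors. Slamf7, a self-binding activating receptor, averaged 2.94 ± 1.31 TPM in Adamts7 tumors and 18.2 ± 16.4 TPM in vector tumors (SD, n = 5 each; limma adjusted p = 0.134). Cd244a, the receptor for CD48, lay between 0.43 and 1.05 TPM in Adamts7 tumors and between 1.22 and 7.29 TPM in vector tumors, without overlap (limma adjusted p = 0.129). Cd244a was named for its small p, and 3.78% of all tested genes were lower in Adamts7 tumors without overlap. Cd226, which binds the poliovirus receptor and nectin-2, averaged 1.26 ± 0.562 TPM in Adamts7 tumors and 5.08 ± 3.45 TPM in vector tumors (SD, n = 5 each; limma adjusted p = 0.151). The other 13 receptors were too low to test; Klra5 and Klrc3 were listed at 0 in every Adamts7 tumor and reached 0.43 and 0.26 TPM in vector tumors.

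Klrb1a, a gene beside Klrb1c whose product is an activating receptor of the same family, went the other way. It was at 3.93, 5.82, 6.40, 6.78 and 2.07 TPM in the tumors labelled Adamts7 1 to 5, against 0.74, 1.22, 2.46, 1.11 and 2.92 TPM in vector tumors 1 to 5. The groups overlapped only through the tumor labelled Adamts7 5, which lay below vector tumors 3 and 5. The log2 fold change was 1.15 (SE 0.32, limma adjusted p = 0.124), and 1.37 without that tumor, where Klrb1a passed (limma adjusted p = 0.0314). In that fit 171 of all 15276 tested genes were called higher. The tumor left out was the lowest Adamts7 tumor for Klrb1a, so the larger difference was fixed in advance. Of its 50-base windows 11.02% are shared with other genes, and none of its 150-base windows.

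Most genes that act below or beside the receptors had negative log2 fold changes, with 0 called in any list. Of 15 adaptor and signaling genes 14 had negative log2 fold changes (median -0.84, and -0.23 without vector tumors 3 and 5), among them Lck at 5.48 ± 2.24 TPM in Adamts7 tumors against 27.6 ± 25.5 TPM in vector tumors and Zap70, the kinase bound to the CD3 zeta chain, at 1.69 ± 0.725 TPM in Adamts7 tumors against 8.46 ± 8.02 TPM in vector tumors (SD, n = 5 each). All 10 tested transcription factor genes were negative (median -0.88, and -0.26), with Eomes at 0.478 ± 0.333 TPM in Adamts7 tumors against 2.18 ± 2.05 TPM in vector tumors and Tbx21, which encodes T-bet, at 0.478 ± 0.227 TPM in Adamts7 tumors against 3.18 ± 2.98 TPM in vector tumors (SD, n = 5 each). Eomes and Tbx21 passed the filter only through the vector tumors, which favored a negative value. Natural killer and T cells share most of these adaptor and transcription factor genes. With vector tumors 3 and 5 and the tumor labelled Adamts7 5 all left out, the adaptor median was -0.08 and 7 of the 15 adaptor genes were positive.

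All 11 tested effector genes were negative and 0 were called (median -1.58, and -0.47 without vector tumors 3 and 5). Ifng, the interferon-gamma gene, lay between 0.19 and 1.34 TPM in Adamts7 tumors and between 1.50 and 33.3 TPM in vector tumors, without overlap (limma adjusted p = 0.135). Prf1, which encodes perforin, lay between 0.27 and 1.21 TPM in Adamts7 tumors against 1.50 to 11.3 TPM in vector tumors (limma adjusted p = 0.136). Ifng and Prf1 averaged 0.73 and 0.664 TPM in Adamts7 tumors and passed the 1 TPM filter only through the vector tumors. The filter thus favored a negative value for both, and the count of negative effectors is no separate support. Cxcr6, a homing receptor of tissue lymphocytes, lay between 1.23 and 1.96 TPM in Adamts7 tumors and between 2.83 and 47.9 TPM in vector tumors (limma adjusted p = 0.159), and 9 of the 10 tested homing genes were negative (median -1.11, and -0.37). Ifng, Prf1 and Cxcr6 are among the genes with the smallest p of their lists, a choice that favors groups without overlap. Without overlap, 3.78% of all tested genes were lower in Adamts7 tumors.

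Of the cytokine and cytokine receptor genes of natural killer cells, 11 of 11 tested had negative log2 fold changes and 0 were called (median -1.06, and -0.24 without vector tumors 3 and 5). Il2rb, the chain shared by the interleukin-2 and interleukin-15 receptors, lay between 2.27 and 4.97 TPM in Adamts7 tumors and between 6.67 and 40.6 TPM in vector tumors (log2 fold change -1.87, limma adjusted p = 0.109). Il15, their survival factor, averaged 2.41 ± 1.35 TPM in Adamts7 tumors and 9.77 ± 9.00 TPM in vector tumors (SD, n = 5 each; limma adjusted p = 0.237). Il2rb did not overlap between the groups, whereas Il15 did. Il2rb was named for its small p, and 3.78% of all tested genes were lower without overlap.

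The ligands of the receptors were measured in the same bulk RNA, where tumor cells and host cells both contribute. All 11 tested ligand genes were negative and 0 were called (median -1.05, and -0.54 without vector tumors 3 and 5). The ligands named here are among those with the smallest p of the list, a choice that favors groups without overlap. Over all tested genes 3.78% were lower in Adamts7 tumors without overlap. H2-K1 and H2-D1, the classical MHC class I genes of this strain seen by Ly49 receptors, lay between 794 and 1442 TPM and between 813 and 1184 TPM in Adamts7 tumors, against 1811 to 6140 TPM and 1269 to 3820 TPM in vector tumors, each without overlap (limma adjusted p = 0.108 and 0.133). H2-T23, which encodes Qa-1, the ligand of CD94 with NKG2A, averaged 133 ± 50.0 TPM in Adamts7 tumors and 432 ± 327 TPM in vector tumors (SD, n = 5 each; limma adjusted p = 0.161). Raet1d, a ligand of NKG2D, was at 1.93, 3.68, 2.69, 2.46 and 2.68 TPM in the tumors labelled Adamts7 1 to 5, against 12.7, 4.89, 2.77, 10.05 and 5.22 TPM in vector tumors 1 to 5. Its lowest vector tumor was tumor 3, where all 9 natural killer genes were highest. The log2 fold change of Raet1d was -1.003 with all tumors (limma adjusted p = 0.154) and -1.40 without vector tumors 3 and 5 (limma adjusted p = 0.110).

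The receptor of Xcl1 and genes of the dendritic cells that carry it were not called. Xcr1, the XCL1 receptor of cross-presenting dendritic cells, lay between 0.04 and 0.46 TPM in Adamts7 tumors and between 0.40 and 4.47 TPM in vector tumors, with overlap (log2 fold change -1.13, limma adjusted p = 0.162). Xcr1 passed the filter only through the vector tumors, which favored a negative value. Flt3l, their growth factor gene, averaged 9.06 ± 3.34 TPM in Adamts7 tumors and 21.4 ± 10.7 TPM in vector tumors (SD, n = 5 each; limma adjusted p = 0.165). Of the 8 genes of this group all 8 were negative and 0 were called (median -1.01, and -0.51 without vector tumors 3 and 5). Without the tumor labelled Adamts7 5 the medians of the 8 lists of the natural killer pathway lay between -1.44 for effectors and -0.65 for adaptors.

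**Figure D4:**
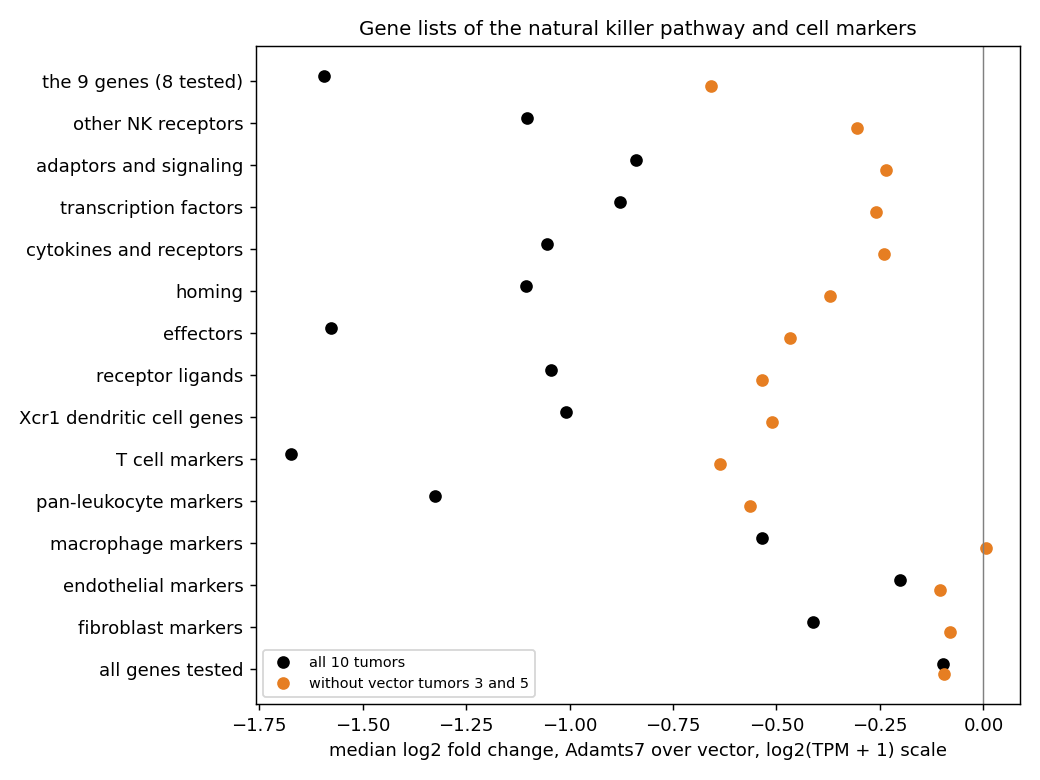
Median log2 fold change of Adamts7 over vector tumors on the log2(TPM + 1) scale for the gene lists named at the left, with all 10 tumors and without vector tumors 3 and 5; melanocyte, B cell and keratinocyte markers are not drawn. The 9 genes, of which 8 were tested, lie at -1.59 and T cell markers at -1.67, against -0.10 for all genes tested, and the lists drawn lie closer to 0 in the fit without vector tumors 3 and 5.

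Markers of other cell types in the tumors did not all run the same way. The 5 macrophage markers had a median log2 fold change of -0.54, and 0.01 without vector tumors 3 and 5, with summed levels of 243 to 1238 TPM in Adamts7 tumors and 490 to 1641 TPM in vector tumors. The 3 leukocyte markers had a median of -1.33, and -0.56 in that fit. Without the tumor labelled Adamts7 5 the macrophage median was -0.22, and with vector tumors 3 and 5 left out too it was 0.31 and all 5 macrophage markers were positive. Fibroblast and endothelial markers had medians of -0.41 and -0.20, and of -0.21 and -0.05 without the tumor labelled Adamts7 5. The 7 melanocyte markers were all positive with a median of 2.13, and -0.07 without vector tumors 3 and 5. The 2 testable B cell markers had a median of -1.07, and keratinocyte markers stayed below the filter, with a summed level of at most 2.29 TPM. No marker in these lists was called, and the part of cell makeup in the lower natural killer genes was not tested.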

How the data were processed

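Polyadenylated RNA of 10 tumors was sequenced as paired reads from libraries with molecular identifiers, per the labels' protocols; the sources used here do not say whether counting used them. The authors deposited log2(TPM + 1) values per gene symbol, and the submitters' processing notes name RSEM and mm39. The authors' deposited table holds, per gene, the mean normalized signal, the log2 fold change and its error, the score of the test, and the raw and adjusted p-value; the submitters' processing notes name DESeq2, and 28805 of its 30040 identifiers were matched to symbols. Reads that fit several similar genes are split by estimate in RSEM. The deposited antigen receptor repertoire was not used here.

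Log2 values were turned back to TPM. The tests used limma 3.58.1 under R 4.3.3, fitted to log2(TPM + 1), that is with a pseudocount of 1 TPM, for every gene averaging 1 TPM or more. The prior was trended, the model held the group alone, and p-values were adjusted after Benjamini and Hochberg over all genes tested, with a threshold of 0.05. TPM keeps no depth, so no counting interval is given, and the precision rests on 5 tumors per group. The test was checked on simulated data. Ratios to Ptprc and Cd3e were compared by an exact permutation test with adjustment over both. Python 3.11.15 and pandas 2.3.3 joined the tables. Promoter windows are RefSeq's for GRCm38.p6, and shared transcript windows were counted in GENCODE transcripts of the same build, since a genome of mm39 was not used here.

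Groups were taken from the titles. The 9 genes, the gene lists, the tests and the fits without vector tumors 3 and 5 and without the tumor labelled Adamts7 5 were chosen with earlier results of these data known. Named are the 9 genes, Adamts7, Ptprc, Cd3e, genes among the up to 4 with the smallest limma p in each list, and the 6 genes whose profile over the tumors differed least from that of Ncr1 by root mean square; Klra5, Klrc3, Klri1 and Klri2 were named outside this rule. Alternatives changed the pseudocount, the filter, the scaling, the variance model or the tumor weights, added a replicate block, left out single tumors, or took the possible sets of day 45.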

Additional observations from a re-analysis of the deposited data

How the results depend on the processing

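Of the 8 tested genes, 0 passed in any of the 22 settings (limma adjusted p between 0.0847 and 0.617), and all 165 log2 fold changes of the 9 genes under the 21 alternatives were negative. A filter at a mean of 5 TPM kept 4 of the 9 genes. Among the 126 tested genes of the other lists 0 were called in the reported fit. At an unadjusted p under 0.05, 65 of them were lower and 2 higher, where 15.3% of all tested genes were lower. Some list genes passed the filter only through the vector tumors, among them Eomes and Tbx21, each at a mean of 0.478 TPM in Adamts7 tumors. Of the 126 list genes, tumor weights called 8 and the fit without vector tumors 3 and 5 called 1, Il12rb1. Vector tumors 3 and 5 were the lowest of their group for Il12rb1, so leaving them out had to enlarge its difference. The fit without vector tumors 3 and 5 and the tumor labelled Adamts7 5 called 7. Leaving out 1 tumor at a time called 0 to 1, the 1 being Klrb1a without the tumor labelled Adamts7 5. Over all genes 34 were called in the reported fit, against 10 without a filter, 1219 with tumor weights, 28 without vector tumors 3 and 5, 800 when the tumor labelled Adamts7 5 was dropped too, and 6 to 655 with 1 tumor left out. Under quantile normalization the median over all genes was 0.04 on the log2 scale, against -0.10 as reported, and every tested gene of the 9 was still negative.

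Ncr1 relative to Ptprc, 0.13 as reported, turned to -1.11 with a pseudocount of 0.1 TPM (exact test, adjusted p = 0.0476), -0.27 with 0.5 TPM and -1.69 with none (adjusted p = 0.0317). It was -0.056 without vector tumors 3 and 5, -0.23 when the tumor labelled Adamts7 5 was dropped too, and -1.59 with no pseudocount without vector tumors 3 and 5. With 1 tumor left out it ran from -0.047, without the tumor labelled Adamts7 5, to 0.25, and over the possible sets of day 45 from -0.31 to 0.57. Ncr1 relative to Cd3e, 0.40 as reported, turned to -0.64 with a pseudocount of 0.1 TPM, -1.18 with none, and -1.03 with none and without vector tumors 3 and 5; it ran from 0.23 to 0.52 with 1 tumor left out. The smaller the pseudocount, the more the value rests on Ncr1 levels near 0 TPM. The larger it is, the more it raises the ratio in the Adamts7 tumors, where Ncr1 was lower.

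The labels do not say whether the replicate numbers pair the tumors. Same-numbered tumors correlated between -0.278 and 0.262 in their deviations from the group means, which gave no sign of pairing but cannot exclude it. With the number as a replicate block 0 of the 9 genes, 0 list genes and 0 of all genes were called, and Ncr1 stayed at 0.13 relative to Ptprc (exact test, adjusted p = 0.75) and at 0.40 relative to Cd3e (adjusted p = 0.125). Levels of Ncr1, Klre1, Klra8 and Txk below 1 TPM in most Adamts7 tumors limit what these values can separate, and the depth behind them is unknown.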

Other observations

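Over the 10 tumors the profile of Ncr1 in log2(TPM + 1), centred on its own mean, was most like that of Trim12c, with a root-mean-square difference of 0.127, Trim5 with 0.164, Apobec1 with 0.167, Xlr4b with 0.173, Ikzf3 with 0.191 and P2ry10 with 0.192. Ikzf3 encodes Aiolos, a lymphocyte transcription factor, and Apobec1 a cytidine deaminase. Of the other 8 natural killer genes Klre1 was the nearest at 0.201 and Xcl1 the farthest at 1.03. The measure compares the size of differences as well as their shape, and the tumors share a library and a scale for all genes. Because the 6 genes were picked by likeness to Ncr1 in these same tumors, a lower level in Adamts7 tumors was built into the choice. Their values describe the likeness and add no support. Trim5 lay between 0.74 and 1.48 TPM in Adamts7 tumors and between 1.86 and 12.7 TPM in vector tumors, without overlap (log2 fold change -1.62, limma adjusted p = 0.112). Apobec1 averaged 13.6 ± 6.05 TPM in Adamts7 tumors and 49.1 ± 39.3 TPM in vector tumors (SD, n = 5 each; limma adjusted p = 0.161).

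Il12rb1, a chain of the interleukin-12 receptor through which natural killer cells are primed to make interferon-gamma, followed another order of tumors than the 9 genes. It was at 15.2, 20.0, 21.4, 14.1 and 11.6 TPM in the tumors labelled Adamts7 1 to 5, against 53.0, 38.0, 16.9, 59.6 and 19.3 TPM in vector tumors 1 to 5. Vector tumors 3 and 5, the highest for all 9 genes, were the lowest of their group for Il12rb1. The log2 fold change was -1.001 with all tumors (limma adjusted p = 0.173) and -1.56 without vector tumors 3 and 5 (limma adjusted p = 0.0450, over all settings 0.0161 to 0.345). Leaving out the lowest vector tumors had to enlarge the difference, so this pass is no separate support. Il12rb1 passed in 3 settings in all, and 0.170% of all genes were called lower in the fit without vector tumors 3 and 5. Klrb1a, the receptor gene that ran higher in Adamts7 tumors, had log2 fold changes between 1.01 and 1.72 over all settings (limma adjusted p between 0.00785 and 0.294) and passed in 3 of them. These were the fits with tumor weights, without the tumor labelled Adamts7 5, and without that tumor and vector tumors 3 and 5. The 3 fits called 1219, 655 and 800 genes, against 34 in the reported fit, so the passes were not particular to Klrb1a. The ratio of Klrk1 to Klrd1 was 167, 188, 128, 513 and 95.4 TPM per 100 TPM in the tumors labelled Adamts7 1 to 5, against 85.3, 153, 93.4, 152 and 118 in vector tumors 1 to 5. Adamts7 tumor 4 was again apart from the rest. Its ratio rests on Klrd1 at 0.15 TPM and Klrk1 at 0.77 TPM, low levels of unknown depth.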
